A study of Mus musculus with 2 samples.

Results

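The transcripts examined here were those of 41 genes that act during DNA replication or cell division, found by their symbols among 28006 features in single cells of mouse femurs. They form 2 lists, with 16 genes of S phase and 25 genes of mitosis, and all 41 symbols were present once. The question was where these transcripts lay among the stromal, endothelial and blood cells of the preparation, and whether the S phase list and the mitosis list went together. Both libraries came from 1 group of mice, so every comparison is between classes of cells within the same 2 animals.

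The mice had the genotype Cxcl12(GFP/+); Cxcl12-iCreER; R26R(tdTomato/+), were given tamoxifen at postnatal day 21 and were studied at postnatal day 28. One Cxcl12 allele is thus replaced by GFP in every animal, the inducible recombinase is driven from a Cxcl12 transgene, and tdTomato marks cells in which it was active together with their descendants. No animals without tamoxifen or without the alleles were part of this series. The cells were sorted for GFP after enzymatic dissociation of the femoral shaft, although 1 protocol field names tdTomato as the sorted color, and 1 library was made from each mouse with the 10x 3′ version 3 chemistry.

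A dividing cell first copies its DNA in S phase and then separates the copies in mitosis. The S phase list holds the Mcm2 to Mcm7 subunits of the replicative helicase, its loaders Cdc6 and Cdt1, Gins2 of the GINS complex, the sliding clamp Pcna, the nucleotide enzymes Rrm1, Rrm2 and Tyms, Uhrf1, which carries DNA methylation over to new strands, and the cyclins Ccne1 and Ccne2, which drive entry into S phase. The mitosis list holds the kinase Cdk1 with its cyclins Ccna2, Ccnb1 and Ccnb2, the kinases Plk1, Aurka and Aurkb, the checkpoint kinases Bub1 and Bub1b, centromere, spindle and midbody proteins, the exit factors Ube2c and Cdc20, and Mki67 and Top2a, which act on the chromosomes themselves. In bone marrow, blood precursors divide many times while they mature, whereas reticular stromal cells are known for slow turnover.

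Genes of the 2 lists are known to be switched by different promoter elements, E2F sites for many S phase genes and the cell cycle homology region (CHR) with CCAAT boxes for many mitosis genes. RefSeq (GRCm38.p6) gave promoters for 34 of the 41 genes, 13 of the S phase list and 21 of the mitosis list, in 37 entries. In the 250 bases before the start, on both strands, the CHR letters TTTGAA or TTCGAA occurred in 9 of 22 mitosis entries (40.9%), in 2 of 15 S phase entries (13.3%) and in 17.1% of all 32851 promoters. The letters CCAAT occurred in 90.9% of mitosis entries, 73.3% of S phase entries and 33.8% of all. The E2F letters TTTCCCGC, TTTGGCGC or TTTCGCGC occurred in 1 of 22 mitosis entries (4.55%), 5 of 15 S phase entries (33.3%) and 1.53% of all. These matches describe letters and not bound sites. The 4 windows here, each of the 120 bases before the start of the gene and written 5′ to 3′ along the strand of the gene, show the elements in capitals. Cdk1, Cdc20 and Ube2c carry CHR and CCAAT letters, and Mcm6 carries E2F and CCAAT letters, with its first 2 E2F matches overlapping in 1 run.
Cdk1 (chr10:69352913-69353032, minus strand): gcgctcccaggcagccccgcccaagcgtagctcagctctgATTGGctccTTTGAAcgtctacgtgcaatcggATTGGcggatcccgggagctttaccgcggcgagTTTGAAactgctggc
Cdc20 (chr4:118437344-118437463, minus strand): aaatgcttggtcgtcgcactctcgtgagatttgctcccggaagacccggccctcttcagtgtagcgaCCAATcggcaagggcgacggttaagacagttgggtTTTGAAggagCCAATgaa
Ube2c (chr2:164769809-164769928, plus strand): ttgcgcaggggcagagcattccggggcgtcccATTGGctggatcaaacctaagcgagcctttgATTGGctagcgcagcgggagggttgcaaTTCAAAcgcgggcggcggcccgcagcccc
Mcm6 (chr1:128359706-128359825, minus strand): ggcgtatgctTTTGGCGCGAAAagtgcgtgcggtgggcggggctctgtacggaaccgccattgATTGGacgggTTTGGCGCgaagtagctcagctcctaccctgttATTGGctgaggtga

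The libraries held 54940400 and 88790688 unique molecular identifiers (UMIs, tags that count each captured transcript once), and 2750 and 4582 cells passed the limits on genes and mitochondrial content, with medians of 12966.5 and 12190 UMIs per cell. The libraries shared 7 cell barcodes. Clustering without the 41 genes and 100 other cell cycle genes gave 20 clusters. Stromal cells, named from Col1a1, Dcn and other matrix and receptor genes, numbered 1879 in Mouse #1 and 3733 in Mouse #2. They included reticular-like cells with Adipoq and Lpl (1244 and 2433), preosteoblast-like cells with Alpl and Ibsp (428 and 848) and periosteal-like cells (80 and 242). There were 151 and 138 endothelial cells, 368 and 328 that were myeloid-like, 234 and 238 that were lymphoid-like and 112 and 135 that were erythroid-like. The sort and the tissue dissociation set these numbers, so no share of a class among all cells is read as a property of the marrow.

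Among the named classes both lists were lowest in reticular-like cells, and they were highest in erythroid-like and in pro-B and pre-B-like cells. The levels are the summed UMIs of a list scaled to the UMIs of the class (CPM), given for Mouse #1 and then Mouse #2, and are a description of 2 mice. The S phase sum was 147 and 142 CPM in reticular-like cells, 237 and 220 in all stromal cells and 278 and 282 in endothelial cells. It was 1106 and 904 CPM in myeloid-like, 1878 and 1885 in lymphoid-like and 3574 and 3009 in erythroid-like cells. The S phase order was thus the same in both mice, with the stromal and endothelial sums close to each other and every blood class well above them. A summed level does not separate more cells with the transcripts from more transcripts in each cell.

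The mitosis sum ran over a wider range. It was 54.4 and 36.7 CPM in reticular-like cells, 476 and 263 in all stromal cells, 294 and 581 in endothelial cells, 2299 and 1623 in myeloid-like, 4776 and 4159 in lymphoid-like and 8933 and 6998 in erythroid-like cells. Stromal and endothelial cells changed places between the mice, with the stromal sum higher in Mouse #1 and the endothelial sum higher in Mouse #2. In erythroid-like cells the mitosis sum was 18.8-fold and 26.6-fold the stromal one, against 15.1-fold and 13.7-fold for S phase.

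**Figure D1:**
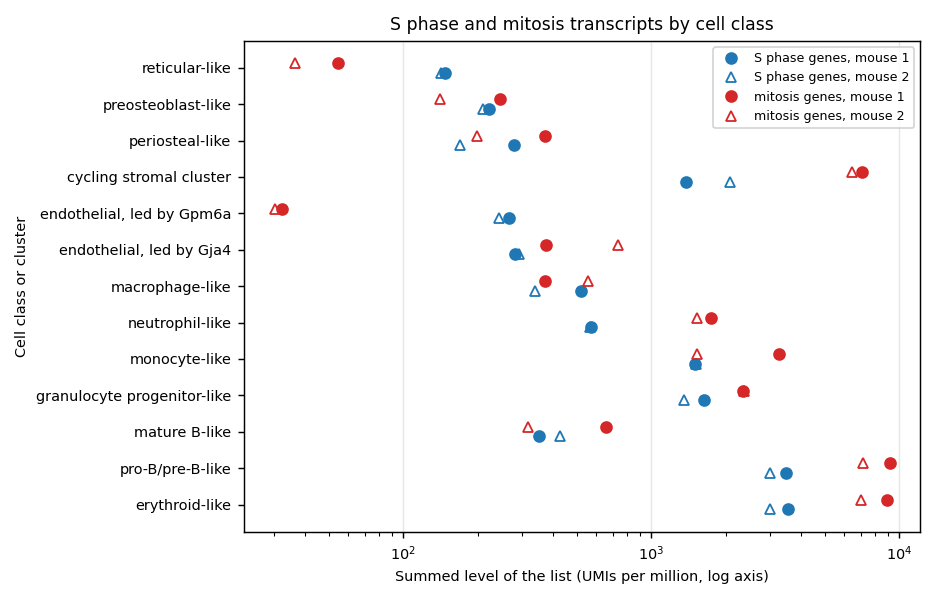
Summed level of the S phase list (blue) and the mitosis list (red) in CPM on a log axis, with 1 row per class or cluster, circles for Mouse #1 and triangles for Mouse #2. Mitosis spans from about 30.3 CPM in the endothelial cluster led by Gpm6a to 9149 CPM in pro-B and pre-B-like cells, while the S phase list starts at 142 CPM.

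Within the broad classes the lists separated further. Pro-B and pre-B-like cells, the dividing precursors of B cells, held 3500 and 3016 CPM of S phase and 9149 and 7138 CPM of mitosis transcripts. Mature B-like cells held 351 and 427 CPM and 658 and 319 CPM. Granulocyte progenitor-like cells stood at 1633 and 1360 CPM for S phase and 2337 and 2363 CPM for mitosis, against 570 and 564 and 1749 and 1532 CPM in neutrophil-like cells. Pro-B and pre-B-like cells were thus above mature B-like cells, and granulocyte progenitor-like above neutrophil-like cells, in both lists and both mice. The neutrophil-like class held some cells with many mitosis UMIs, as given below, so it is not taken as purely mature. The endothelial cluster led by Gpm6a and Selp (28 cells in each mouse) had 267 and 243 CPM of S phase transcripts but 15 and 13 mitosis UMIs in all, or 32.5 and 30.3 CPM. The other endothelial cluster, led by Gja4, had 282 and 293 CPM and 375 and 736 CPM.

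The balance of the lists is given as the log2 ratio of the S phase sum to the mitosis sum, as mean ± SD over 2 mice and without a test. It was -1.27 ± 0.07 in erythroid-like, -1.24 ± 0.14 in lymphoid-like and -0.95 ± 0.15 in myeloid-like cells, so mitosis transcripts outnumbered S phase transcripts in these classes in both mice. It was -0.63 ± 0.53 in stromal and -0.56 ± 0.68 in endothelial cells, where the 2 mice were far apart. Reticular-like cells stood at 1.69 ± 0.37 and preosteoblast-like cells at 0.22 ± 0.52. Removal of the 2 unnamed stromal clusters turned the stromal ratio to 0.72. One of them, described next, was picked by its mitosis sum, so a rise of the ratio was set in advance.

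The stromal mitosis transcripts lay mostly in 1 small cluster. This cluster, led by Acta2, Fam64a, Iqgap3, Slfn9 and Melk, carried 6 of 8 preosteoblast and 5 of 8 mural markers and was left unnamed. It is called the cycling stromal cluster here for its transcripts, since the 41 genes were left out of the clustering but genes that vary with them were not. It was picked as the unnamed stromal cluster with the highest mitosis sum. Its levels are therefore a description. It held 56 cells in Mouse #1 and 65 in Mouse #2, or 2.98% and 1.74% of stromal cells and 4.98% and 2.80% of stromal UMIs. Its sums were 1382 and 2069 CPM for S phase and 7067 and 6452 CPM for mitosis, the latter 54.4-fold and 76.0-fold the level of all other stromal cells. Pan-blood markers, 7 of 8 with a UMI, summed to 42.6 and 17.4 CPM there, with 49.9 and 56 CPM in the reticular-like class and 7681 and 8174 CPM in the myeloid-like class. Erythroid markers, 6 of 10 with a UMI, summed to 107 CPM in Mouse #1 and 4048 CPM in Mouse #2, against 168738 and 144723 CPM in erythroid-like cells, and their part in the result was not tested.

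Each mitosis gene had most of its stromal UMIs in that cluster in Mouse #1, and 24 of 25 did in Mouse #2. The share of a mitosis gene's stromal UMIs held by the cluster had a median of 73.2% (range 54.3 to 82.2%) in Mouse #1 and of 66.5% (48.6 to 78.0%) in Mouse #2. For Mki67, the Ki-67 protein of dividing cells, it was 798 of 1063 UMIs (75.1%, 95% Wilson interval 72.4 to 77.6%) and 1045 of 1365 (76.6%, 74.2 to 78.7%). Top2a, which untangles sister chromatids, stood at 72.5% and 78.0%. Aurkb, the kinase of the chromosomal passenger complex, was lowest in Mouse #1 at 54.3%, and Cenpa, the histone variant that marks centromeres, was lowest in Mouse #2 at 48.6%.

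S phase genes were spread more widely through the stroma, and unevenly among themselves. Their median share in the cycling stromal cluster was 33.6% in Mouse #1 and 25.4% in Mouse #2, and 1 and 2 of the 16 genes passed 50%. Rrm2, the cell cycle-regulated subunit of ribonucleotide reductase, lay at 69.9% (65.3 to 74.1%) and 68.3% (64.6 to 71.8%), within the range of the mitosis genes. Uhrf1 lay at 46.2% and 55.1%, and Ccne2 at 47.6% and 48.4%. At the other end, Mcm7 had 13.1% (10.9 to 15.8%) and 11.3% (9.68 to 13.1%), Mcm4 14.6% and 14.8%, and Pcna 14.1% and 17.5%. Mcm7 was lowest and Rrm2 highest in both mice, with intervals that overlapped among Mcm7, Mcm4 and Pcna in Mouse #1 but not between these genes and Rrm2. Most stromal UMIs of the helicase subunits Mcm4 and Mcm7 and of Pcna thus came from cells outside the cycling stromal cluster. The cluster was picked by its mitosis sum, so part of the contrast between the lists was set in advance. The intervals take each UMI as independent, although the cluster held few cells.

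**Figure D2:**
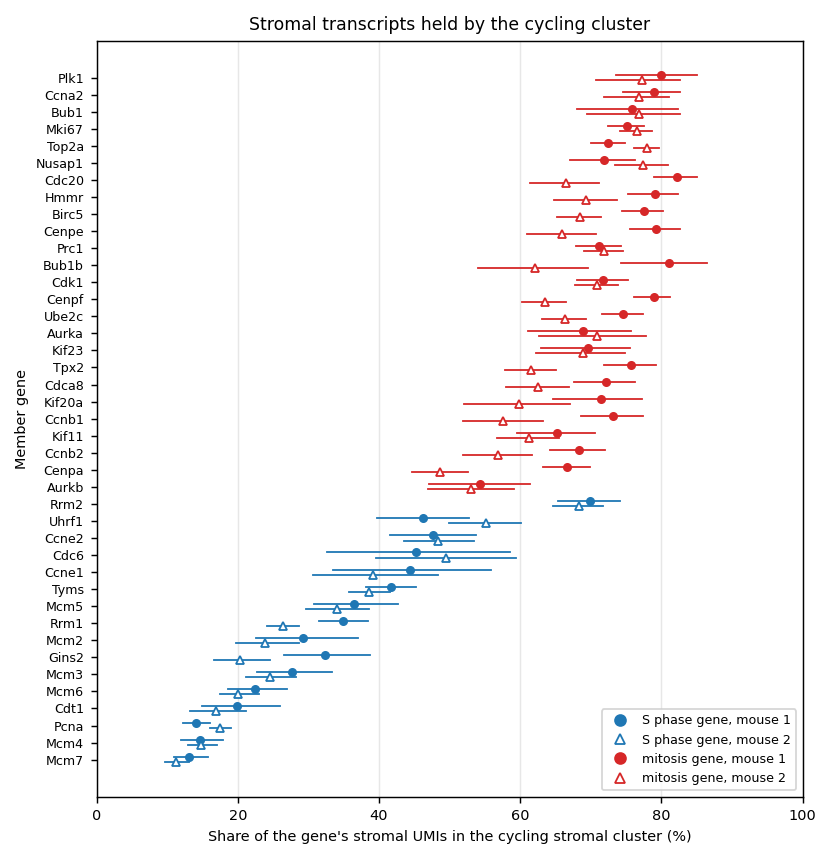
Share of each gene's stromal UMIs that lay in the cycling stromal cluster (horizontal axis, %), with 1 row per gene, mitosis genes in red, S phase genes in blue, circles for Mouse #1, triangles for Mouse #2 and bars for 95% Wilson intervals. Mitosis genes lie between 48.6 and 82.2%, and S phase genes fall from Rrm2 at 69.9 and 68.3% down to Mcm7 at 13.1 and 11.3%.

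Mitosis transcripts lay in few single cells. Of all stromal mitosis UMIs, 50% lay in 14 of 1879 cells in Mouse #1 and in 24 of 3733 in Mouse #2, whereas 50% of S phase UMIs took 114 and 234 cells. In endothelial cells 1 and 2 cells held 50% of mitosis UMIs. The 3 and 4 endothelial cells with 20 or more mitosis UMIs held 82.1% and 93.5% of them, and without these cells the class fell to 55.2 and 40.8 CPM for mitosis but kept 244 and 221 CPM for S phase. In the other endothelial cells the mitosis sum was thus below the S phase sum in both mice, while over the whole class it was above. The cells left out were picked by their mitosis UMIs, so a fall of the mitosis sum was set in advance.

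In preosteoblast-like cells, 10 and 26 cells with 20 or more mitosis UMIs held 76.8% and 69.0%. A single cell of Mouse #1, in the cluster led by the osteoblast genes Bglap and Bglap2, had 802 of the 1900 mitosis UMIs of its class, with all 25 genes detected beside 15 S phase UMIs among its 51693 UMIs. That cluster met the preosteoblast markers with 4 of 8, Bglap among them, although its leading genes are those of mature osteoblasts. Without all 10 and 26 cells of 20 or more mitosis UMIs, the preosteoblast-like class stood at 59.5 and 45.5 CPM. In reticular-like cells only 5 and 4 cells reached 20 mitosis UMIs, with 33.7% and 14.2% of the total, and the rest stood at 36.2 and 31.6 CPM. Neutrophil-like cells were also divided, since 39 and 40 cells held 97.1% and 97.5% of mitosis UMIs and the others stood at 88.3 and 63.7 CPM. Erythroid-like cells were not, with 105 of 112 and 112 of 135 cells at 20 or more.

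**Figure D3:**
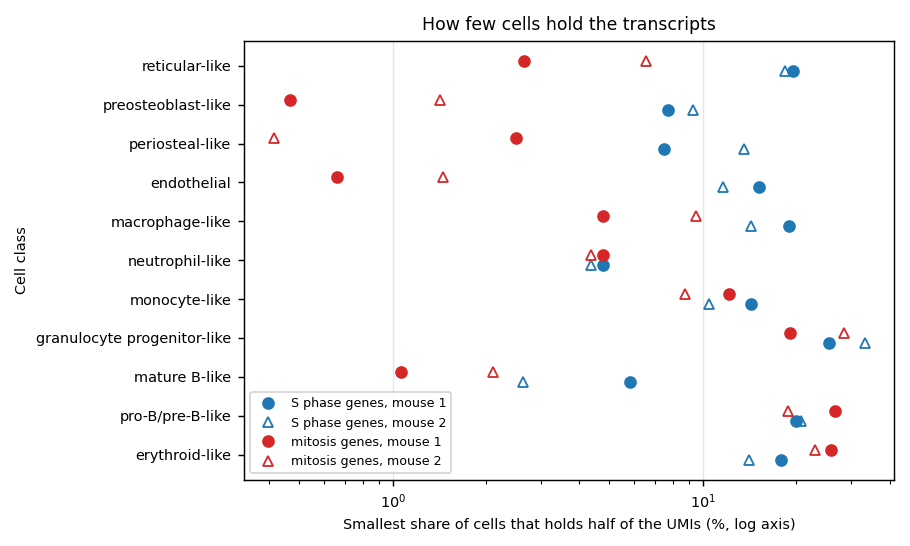
Smallest share of the cells of a class (%, log axis) that together held 50% of the UMIs of the S phase list (blue) and of the mitosis list (red), with circles for Mouse #1 and triangles for Mouse #2. In preosteoblast-like cells 0.467 and 1.42% of cells held 50% of mitosis UMIs against 7.71 and 9.32% for S phase, while in erythroid-like cells it took 25.9 and 23.0% of cells for mitosis and 17.9 and 14.1% for S phase.

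Barcodes of 1 to 100 UMIs, taken as free RNA, had an S phase sum of 520 and 358 CPM and a mitosis sum of 861 and 657 CPM. Reticular-like cells stood at 28.3 and 39.7% of that level for S phase but at 6.31 and 5.59% for mitosis. For genes that stroma should not make, the class stood at 4.76 and 8.95% of the free level of hemoglobin genes and at 1.19 and 1.71% of that of neutrophil genes. Its mitosis share was thus above its neutrophil share in both mice, and above its hemoglobin share in Mouse #1 only. The median reticular-like cell held 1.25 and 1.08% of the free level of hemoglobin genes and 0.920 and 1.04% of that of neutrophil genes, against 24.2 and 32.3% of that of the S phase list and 0 for the mitosis list. The mitosis level of the class is so low for the depth of a cell that a median of 0 cannot be set against the medians of the blood genes. S phase transcripts stood above the share that the blood genes reached. The part of free RNA was not tested.

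Shares of cells were compared after each cell was thinned to 2000 UMIs, with a cell counted when 2 or more UMIs of a list remained. Counted for mitosis were 0.644% (95% Wilson interval 0.327 to 1.27%) and 0.618% (0.375 to 1.02%) of reticular-like cells, 3.51% (2.14 to 5.71%) and 3.54% (2.49 to 5.01%) of preosteoblast-like cells and 2.65% (1.03 to 6.61%) and 2.90% (1.13 to 7.22%) of endothelial cells. The preosteoblast-like intervals lay above the reticular-like ones in both mice, and the endothelial intervals overlapped the preosteoblast-like ones in both mice and the reticular-like one in Mouse #1 only. For S phase the shares were 4.83 and 4.16% in reticular-like and 6.09 and 6.97% in preosteoblast-like cells, with overlapping intervals in Mouse #1 only. In the endothelial cluster led by Gpm6a, 0 of 28 cells in each mouse were counted for mitosis, which allows a share of up to 10.7% by a limit of 3 counts (95% Wilson upper bound 12.1%).

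Blood classes ran from few to nearly all cells. Mitosis was counted in 97.3% (92.4 to 99.1%) and 87.4% (80.8 to 92.0%) of erythroid-like cells, in 86.7 and 83.3% of pro-B and pre-B-like cells, in 74.5 and 76.2% of granulocyte progenitor-like cells, in 20.6 and 18.3% of neutrophil-like cells and in 10.6 and 8.51% of mature B-like cells. In the cycling stromal cluster it was 100% and 93.8%. No class can be taken to lack these genes, so the reticular-like share served as the low end. The median cell held 12467 and 11567 UMIs in the reticular-like, 4599 and 4072 in the mature B-like and 23699.5 and 25245 in the erythroid-like class. Without thinning, 50.1 and 45.0% of reticular-like cells were counted for S phase and 9.24 and 7.40% for mitosis.

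The lists often met in the same cells of the blood precursors. Of the erythroid-like cells counted for mitosis, 78.0% and 66.9% were also counted for S phase, and in pro-B and pre-B-like cells it was 87.2% and 82.5%. In reticular-like cells it was 4 of 8 cells and 2 of 15, and in mature B-like cells 3 of 20 and 1 of 16. Of the cells counted for S phase, 100% and 98.8% of erythroid-like and 97.1% and 91.7% of pro-B and pre-B-like cells were also counted for mitosis. That share was 6.67% (4 of 60 cells) and 1.98% (2 of 101) in reticular-like cells. The overlap to be had by chance was not computed, and it is larger where both lists are common.

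**Figure D4:**
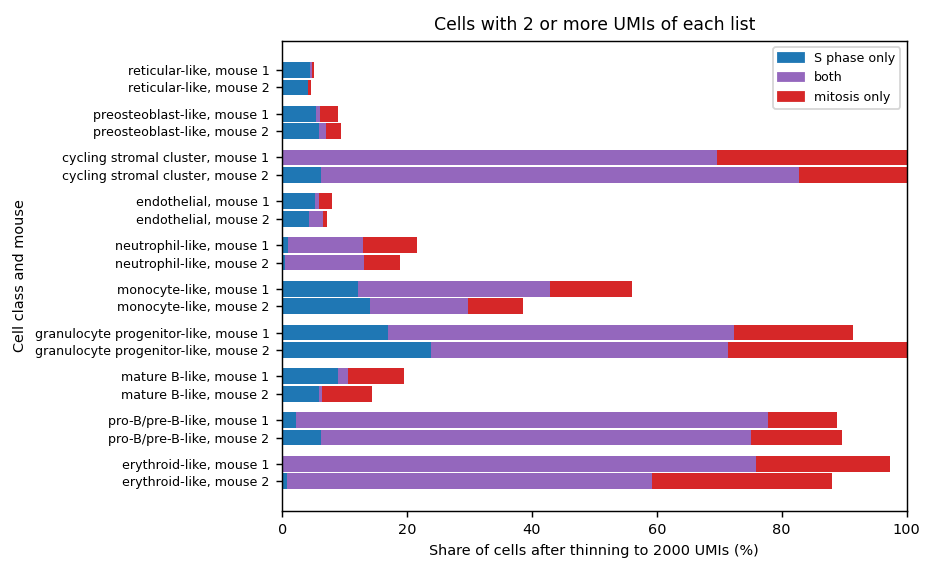
Share of cells (%) with 2 or more UMIs of the S phase list only (blue), of both lists (purple) and of the mitosis list only (red) after thinning to 2000 UMIs, with 1 bar per class and mouse. Reticular-like bars end near 5% and are nearly all blue, whereas erythroid-like and pro-B and pre-B-like bars are mostly purple.

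In the test on sums per mouse, all 16 S phase and all 25 mitosis genes were higher in each blood class than in stromal cells (edgeR quasi-likelihood, adjusted p under 0.05). Of all 13013 genes tested, 30.8% were higher in myeloid-like, 28.5% in lymphoid-like and 29.5% in erythroid-like cells than in stromal cells. The median fitted log2 difference was 2.61 for S phase and 2.86 for mitosis in myeloid-like cells, 3.02 and 3.42 in lymphoid-like cells and 4.69 and 4.77 in erythroid-like cells, beside medians of -0.05, -0.14 and -0.40 over all genes. The erythroid all-gene median was -0.26 with RLE scaling, a shift of 0.14 that left all 41 calls in place. These counts were 41 in every alternative tried. With 2 mice a class, an exact permutation test of 1 gene could not go below p = 0.333, so the p-values rest on the fit across genes.

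Mki67 showed the size of these differences. It stood at 38.9 and 25.6 CPM in stromal, 199 and 169 CPM in myeloid-like, 549 and 435 CPM in lymphoid-like and 1704 and 1291 CPM in erythroid-like cells. The 4 classes did not overlap in any pair of mice. Against stromal cells its log2 difference was 2.91 ± 0.38 (SE, adjusted p = 0.00012 by edgeR), 3.83 ± 0.39 (adjusted p = 3.5e-05) and 6.32 ± 0.44 (adjusted p = 2.7e-06). Cdk1, the main mitotic kinase, rose by 2.72, 2.87 and 4.75, and Top2a by 2.96, 3.90 and 4.80.

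In myeloid-like cells the largest differences were those of Ube2c, the ubiquitin-conjugating enzyme of the anaphase-promoting complex (3.63), the passenger complex subunits Cdca8 (3.53) and Aurkb (3.44), the spindle protein Nusap1 (3.48) and the midbody kinesin Kif23 (3.14). Among S phase genes they were Rrm2 (3.99), Cdc6 (3.69), Mcm5 (3.65), Mcm3 (3.51) and Mcm2 (3.07). Rrm2 went from 15.2 and 12.0 CPM in stromal to 178 and 150 CPM in myeloid-like cells. Pcna rose by 1.77 ± 0.23 (adjusted p = 0.00014 by edgeR), from 47.7 and 41 to 124 and 105 CPM. Mcm4 had the smallest difference of the 41, at 1.54 ± 0.17.

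Lymphoid-like cells had Uhrf1 in first place among S phase genes. It stood at 178 and 162 CPM against 8.09 and 6.68 CPM in stromal cells, a log2 difference of 4.42 ± 0.21 (adjusted p = 4.1e-07 by edgeR). Rrm2 (4.41), Mcm3 (3.83), Cdc6 (3.75) and Mcm5 (3.71) followed, with Mcm2 at 3.63 and Pcna at 2.16. The largest mitosis differences were those of Nusap1 (4.44), Aurkb (4.09), the spindle motor Kif11 (3.97), the checkpoint kinase Bub1b (3.93) and Top2a (3.90).

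Erythroid-like cells led with cyclin E1, Ccne1, at 155 and 134 CPM against 2.64 and 2.16 CPM, a log2 difference of 6.69 ± 0.33 (adjusted p = 4.3e-07 by edgeR). Cdc6 (6.48), which loads the helicase, Rrm2 (6.37), Mcm2 (5.51) and Mcm5 (5.27) came next, and Pcna stood at 3.71. After Mki67 the largest mitosis differences were those of Nusap1 (6.18), Ube2c (6.04), cyclin A2, Ccna2 (5.62), and Birc5, the survivin subunit of the passenger complex (5.53). The smallest were Gins2 at 3.23 and Cdc20 at 3.60, so every gene was more than 3 log2 units above stroma.

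Erythroid-like cells were also above myeloid-like cells for all 41 genes, where 23.7% of all genes were higher. The median log2 difference was 2.01 for S phase and 2.23 for mitosis. Ccne1 differed most, with 155 and 134 CPM against 14.4 and 10.6 CPM (3.89 ± 0.30, adjusted p = 6e-06 by edgeR), followed in its list by Cdc6 (2.78), Mcm2 (2.44), Rrm2 (2.38) and Uhrf1 (2.36). Mki67 (3.41), the centromere protein Cenpf (3.02), Ccna2 (2.77), Prc1, which bundles the central spindle (2.76), and Nusap1 (2.70) led the mitosis list, and Cdk1 (2.04), Top2a (1.84) and Pcna (1.94) followed.

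Between lymphoid-like and myeloid-like cells 7 of 41 genes passed the test, all higher in lymphoid-like cells, where 13.3% of all genes were higher. Uhrf1 stood out, at 178 and 162 against 40.3 and 27.8 CPM (1.81 ± 0.19, adjusted p = 9.9e-05 by edgeR). Gins2 (0.76), Cenpf (1.33), Ccnb1 (1.10), Kif11 (1.02), Bub1b (1.01) and Tpx2, the activator of Aurka (0.74), were the others. The 34 genes that did not pass included Mki67 (0.92 ± 0.36), Top2a (0.94 ± 0.47), Cdk1 (0.15 ± 0.47), Rrm2 (0.42 ± 0.29), Mcm2 (0.55 ± 0.23) and Pcna (0.39 ± 0.23). Tyms (-0.21 ± 0.25) and Cdt1 (-0.26 ± 0.23) had values of the other sign, and Ccne2 (0.03), Mcm5 (0.06), Cdc6 (0.06) and Kif23 (0.09) lay near 0. With mouse as a block 11 genes were higher, beside 13.6% of all genes. At clustering resolution 1.0, where the lymphoid-like class had 218 in place of 472 cells, 28 were higher beside 15.8% of all genes.

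Between endothelial and stromal cells 6 of the 41 genes passed the test, 3 higher and 3 lower. Pcna was higher at 126 and 98.1 against 47.7 and 41 CPM (1.23 ± 0.24, adjusted p = 0.0026 by edgeR). Mcm3 was higher at 20.4 and 21.6 against 9.78 and 10.2 CPM (0.96 ± 0.23), and Kif23 at 11.8 and 21.1 against 7.47 and 3.86 CPM (1.46 ± 0.46). Gins2 was lower at 2.04 and 3.08 against 8.13 and 7.58 CPM (-1.72 ± 0.29, adjusted p = 0.0012 by edgeR), as were Ccne2 (-1.50 ± 0.52) and Mcm4 (-1.20 ± 0.23). Neither mouse overlapped the other class for these 6 genes. Of all genes, 18.1% were higher and 21.8% lower in endothelial cells.

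The other 35 genes did not pass, among them Mki67 (-0.04 ± 0.38), Top2a (-0.44 ± 0.50), Cdk1 (0.20 ± 0.54), Rrm2 (-0.97 ± 0.38) and Mcm2 (-0.58 ± 0.38). Mki67, Plk1, Aurka, Prc1 and Kif20a had the largest p. Values against most of their list were those of Mcm6 (0.43), Tyms (0.36) and Cdc6 (0.94) above 0 and of 12 mitosis genes below 0, down to Aurkb at -0.88. The result turned on which stromal cells were counted. Without the 2 unnamed stromal clusters, 20 mitosis and 5 S phase genes were higher in endothelial cells and 2 S phase genes lower, beside 19.0% of all genes higher, and Mki67 then stood at 1.96 ± 0.41. The cycling stromal cluster, picked by its mitosis sum, was among those left out, so a lower stromal mitosis level was set in advance. Of all genes, 21.8% were lower and 18.1% higher in the main fit, with no such share given after doublet removal. With the cells of highest doublet score left out, 9 genes were lower and 2 higher. Kif23 then no longer passed (0.82 ± 0.47), 3 mitosis genes were lower and none higher, and the median of the mitosis list turned from 0.18 to -0.74. Pan-blood markers, 8 of 8 with a UMI, summed to 165 and 207 CPM in endothelial cells against 49.9 and 56 CPM in reticular-like cells, and genes of neutrophils to 5756 and 4987 CPM, with 180 and 136 CPM in the median endothelial cell, and their part in the result was not tested. With RLE scaling the median of all genes moved from -0.12 to 0.02, and 5 of the 41 genes passed.

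Preosteoblast-like cells were above reticular-like cells for 26 of 41 genes, 18 of 25 for mitosis and 8 of 16 for S phase, where 14% of all genes were higher. None was lower. The cycling stromal cluster belonged to neither class here. Cenpf stood at 16.2 and 14.4 CPM against 2.92 and 1.12 CPM (3.00 ± 0.46, adjusted p = 0.0036 by edgeR). The spindle protein Hmmr (2.96), Ccnb1 (2.91), Bub1 (2.82) and Bub1b (2.71) followed. Mki67 stood at 21 and 10.5 against 3.83 and 2.41 CPM (2.32 ± 0.39, adjusted p = 0.005 by edgeR), with Top2a at 2.58 and Cdk1 at 2.40. For each of these genes both preosteoblast-like sums lay above both reticular-like sums.

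Among S phase genes the pattern was uneven. Uhrf1 (2.27), Mcm2 (1.93), Rrm2 (1.74), Mcm5 (1.62) and Mcm3 (1.27) differed most, and Mcm6, Cdt1 and Rrm1 also passed. Pcna did not, at 42.1 and 36.2 against 41.4 and 33.8 CPM (0.05 ± 0.25), nor did Mcm7, at 25.4 and 23.9 against 22.8 and 23.3 CPM (0.09 ± 0.18). Mcm4 (-0.08 ± 0.14) and Tyms (0.22 ± 0.30) were close to 0 as well. Of these, Mcm4, Mcm7 and Pcna were the genes with the smallest share in the cycling stromal cluster, while Mcm2, at 1.93, is a subunit of the same helicase as Mcm4 and Mcm7. The mitosis genes that did not pass were Aurka (0.54 ± 0.73), Aurkb (0.58 ± 0.45), Plk1, Kif20a, Nusap1, Cdc20 and Ccna2.

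The count depended on where cycling stromal cells were placed and on the cell limits, and less on single clusters. When 281 further genes that correlated with the mitosis list were also left out of the clustering, the cycling stromal cluster dissolved, and 99 of its 121 cells became preosteoblast-like and 17 reticular-like. All 25 mitosis and 13 S phase genes then passed, beside 15.1% of all genes. With the cycling stromal cluster counted as preosteoblast-like, 38 genes passed as well, beside 16%, and the median log2 difference of the mitosis list was 4.59 in place of 2.10. The count was also 38 at 500 genes and 20% mitochondrial UMIs, at 2000 genes and 10%, and with cell cycle genes kept in the clustering. The mitosis medians were then 4.56, 4.54 and 5.01. Without the cluster led by Bglap, which held the cell with 802 mitosis UMIs, 25 genes passed, and without the reticular-like cluster led by Cxcl9 29 did.

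**Figure D5:**
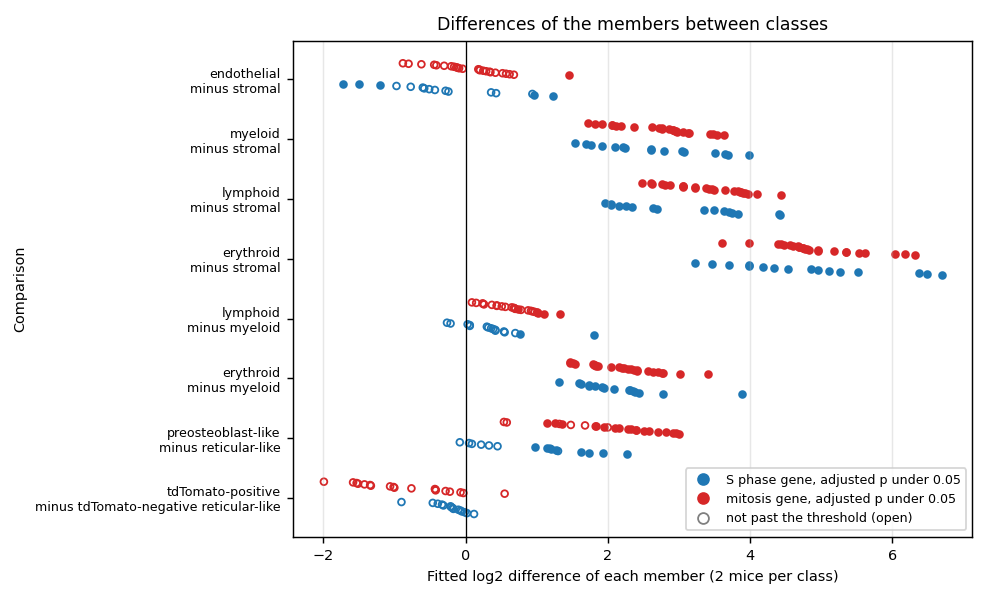
Fitted log2 difference of each of the 41 genes in the 8 comparisons (horizontal axis, first class minus second), with S phase genes in blue, mitosis genes in red, filled points for adjusted p under 0.05 and open points for the others. All points of the myeloid, lymphoid and erythroid rows against stroma are filled and lie between 1.54 and 6.69, and all points of the tdTomato row are open.

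Reticular-like cells were split by tdTomato, which marks cells in which the Cxcl12-driven recombinase was active. A cell counted as positive above the 99th percentile of blood cells, 8.730 and 14.64 tdTomato UMIs per 10000, which gave 499 and 980 positive and 745 and 1453 negative cells. For mitosis the sum reached 29.0 and 31.8 CPM with tdTomato and 71.4 and 40.0 CPM without it. The S phase sum was 135 and 138 against 155 and 145 CPM. Both sums were lower in positive cells in both mice, with log2 ratios of -1.30 and -0.33 for mitosis and -0.20 and -0.08 for S phase.

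None of the 34 genes that could be tested passed in this comparison (edgeR), nor did any by DESeq2, and 4 had an unadjusted p under 0.05, all lower in positive cells. No gene of all 12196 was lower by edgeR (0%), with 484 at an unadjusted p under 0.05, and DESeq2 called 2 higher and 7 lower. Mki67 had 12 and 14 UMIs in positive and 51 and 59 in negative cells, or 1.81 and 1.15 against 5.18 and 3.25 CPM (-1.51 ± 0.40). Cdk1 stood at 0.906 and 0.575 against 4.27 and 1.76 CPM (-1.99 ± 0.62), and Top2a at 1.51 and 2.79 against 6.6 and 3.36 CPM (-1.06 ± 0.46). The positive sums of these 3 genes lay below both negative sums. Pcna (-0.05 ± 0.15), Mcm2 (-0.46 ± 0.34), Rrm2 (-0.90 ± 0.68), Mcm4 (0.02), Mcm7 (-0.01), Kif11 (-0.03), Cdca8 (-0.07) and Cdt1 (-0.07) did not pass, and Aurka (0.55), Gins2 (0.12) and Mcm4 were above 0.

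With mouse as a block, 6 mitosis genes were lower in positive cells, where 2.84% of all genes were lower. They were Cdk1 (-1.89, adjusted p = 0.00057 by edgeR), Mki67 (-1.47, adjusted p = 0.00061), Birc5 (-1.35), Cenpf (-1.41), Top2a (-0.94) and Cenpa (-0.92). With the block and with the 281 correlated genes left out of the clustering, 18 of 23 mitosis genes and Rrm2 were lower, beside 1.51% of all genes. In that setting 10 and 5 cells of the former cycling stromal cluster were among the negative cells and 1 and 1 among the positive, and the 10 negative cells with the most mitosis UMIs held 78.9% and 75.4% of that total. With the classes used elsewhere, the 10 negative cells with the most mitosis UMIs held 51.1% of that total in Mouse #1 and 24.7% in Mouse #2. Among positive cells it was 19.8% and 16%, and the difference without these cells was not tested. After thinning, mitosis was counted in 0 of 499 positive cells of Mouse #1, which allows a share of up to 0.601% by a limit of 3 counts (95% Wilson upper bound 0.764%), and in 0.408% (0.159 to 1.04%) of those of Mouse #2, against 1.08% (0.547 to 2.11%) and 0.759% (0.424 to 1.35%) of negative cells. The intervals overlapped.

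Of 101 other cell cycle genes from lists of the same pathway, 100 were found. The further replication and mitosis genes among them followed the members in blood cells, and the other groups did so in part. All 24 further replication genes were higher than in stromal cells in each of the 3 blood classes, and of 43 further mitosis genes tested 42 were higher in myeloid-like and 43 in lymphoid-like and erythroid-like cells. Of all genes, 30.8% were higher and 33.7% lower in myeloid-like, 28.5% and 35.2% in lymphoid-like and 29.5% and 41.3% in erythroid-like cells. Of 6 G1 cyclins and kinases, 3, 4 and 4 were higher and 1, 1 and 2 lower in these classes. Of 13 pocket proteins and E2F factors, 9, 9 and 10 were higher and 2, 1 and 2 lower. E2f2, an activating E2F factor, rose from 1.43 and 1.39 CPM in stroma to 32.7 and 29.5 CPM in myeloid-like, 137 and 126 CPM in lymphoid-like and 197 and 134 CPM in erythroid-like cells. Mybl2, the Myb factor of the MuvB complex, rose by 3.10, 3.08 and 5.60 log2 units. Cdc25b, a phosphatase that activates Cdk1, stood at 113 and 87.0 CPM in lymphoid-like, 122 and 90.8 CPM in erythroid-like and 3.19 and 2.87 CPM in stromal cells.

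The CDK inhibitors, which hold cells in G1, did not follow one direction. In erythroid-like cells 3 of 7 rose and 4 fell against stroma, where 29.5% of all genes were higher and 41.3% lower. Cdkn2d rose from 22.6 and 18.9 to 269 and 152 CPM (4.14 ± 0.33, adjusted p = 5.9e-06 by edgeR), and Cdkn2c from 15.7 and 14.4 to 111 and 70.1 CPM. Cdkn1c, the p57 inhibitor, fell in myeloid-like cells from 202 and 173 CPM in stroma to 9.68 and 20.9 CPM (-3.23 ± 0.32). In endothelial cells the G1 cyclin Ccnd1 was higher, at 77.2 and 74.5 against 12.9 and 13 CPM (2.44 ± 0.31, adjusted p = 0.00024 by edgeR), as were E2f7 (2.82), Rb1 (1.44) and Cdkn1a (0.93). Others fell there. Of 7 CDK inhibitors 1 was higher and 1 lower, and of 13 pocket proteins and E2F factors 3 were higher and 2 lower. Of 24 further replication genes 3 were lower and 0 higher, beside 18.1% of all genes higher and 21.8% lower.

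Between the stromal states, Ccnd1 was higher in preosteoblast-like than in reticular-like cells, at 28.7 and 30.2 against 3.10 and 2.57 CPM (3.39 ± 0.27, adjusted p = 0.00032 by edgeR). Ccnd2 was higher too (1.39 ± 0.18), and so were the inhibitors Cdkn2a (3.10 ± 0.36) and Cdkn2b (2.07 ± 0.24). Cdkn1c was lower, at 93.8 and 83.1 against 257 and 207 CPM (-1.40 ± 0.14, adjusted p = 0.00059 by edgeR). Of the further genes, 22 of 42 mitosis genes and 6 of 23 replication genes were higher and none lower. Of all genes in this comparison, 14% were higher and 14.5% lower.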

How the data were processed

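Single cells of 2 femur libraries, 1 per mouse, were analysed. The matrices the authors deposited hold raw UMI counts per feature and barcode, made with Cell Ranger 3.0.0 per the file headers and, per the study's methods, on mm10 with reporter sequences added. The annotation release was not given in the sources used here.

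Barcodes were kept with 1000 or more genes and no more than 15% mitochondrial UMIs. Log counts, corrected for log UMIs per cell, of 2000 variable genes gave 30 components and a graph of 15 neighbors, clustered by Leiden at resolution 0.5 (scanpy 1.11.5, leidenalg 0.10.2). The 41 genes, 100 other cell cycle genes, histones, mitochondrial genes and reporters were not clustering genes. Clusters went to the lineage with most markers at 20% or more of the highest cluster mean, a rule set after the data were seen, and were named "-like" from at least 3 markers raised 1.5-fold or more, unless their 10 leading genes held more markers of another class (as with Acta2 in the cycling stromal cluster) or their depth was low with no such marker among those genes. Doublets were kept. Scrublet's own limit marked 0.909% and 0.131% of cells, so the alternative removed the highest scores (60 and 168 cells).

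UMIs were summed per mouse and class, so that mice and not cells were the replicates. Sums were tested by edgeR 4.0.16 (R 4.3.3, quasi-likelihood, TMM, filterByExpr), with Benjamini-Hochberg adjustment over all tested genes and calls under 0.05. The fit of 5 classes held 10 sums with 5 residual degrees of freedom, and others held 6 sums of 3 stromal states and 4 sums split by tdTomato. Mouse was not a block. Paired sums came from 1 animal, and same-animal deviations correlated at -0.00233 to 0.273, at 0.144 to 0.29 and at 0.514 in these fits. TMM makes fitted differences depart from ratios of printed CPM (factors 0.611 and 0.747 in erythroid-like, 1.16 and 1.12 in stromal sums). The scripts were tested on simulated counts. Alternatives were the block, DESeq2 1.42.0, RLE, no count filter, other cell limits and clusterings, doublet removal, and omission of clusters or mice.

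Shares used cells thinned to 2000 UMIs, with 95% Wilson intervals (for 0 cells also a limit of 3 counts), and exact Poisson intervals were used for summed counts. They cover counting error only. Named were, per comparison, the 5 largest called genes of each list, those against most of their list, Mki67, Top2a, Cdk1, Pcna, Mcm2 and Rrm2, and up to 5 with the largest p, beside a few of the other cell cycle genes. The members, lists and tests were chosen with earlier results of these data known. The study's rank sum test over cells was not used, because cells of 1 mouse are not replicates.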

Additional observations from a re-analysis of the deposited data

Results flagged for a closer look

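One blood cluster of 6 cells in Mouse #1 and 10 in Mouse #2, led by Siglech, Cox6a2 and Klk1, belonged to none of the classes compared and still held transcripts of both lists. Its S phase sum was 151.4 CPM (95% Poisson interval 72.6 to 278) in Mouse #1 and 228.2 CPM (148 to 337) in Mouse #2, from 10 and 25 UMIs. Its mitosis sum was 60.54 CPM (16.5 to 155) and 82.13 CPM (37.6 to 156), from 4 and 9 UMIs. Free RNA stood above these values at 520 and 358 CPM for S phase and 861 and 657 CPM for mitosis, and its part in them was not tested. With 2 mice in 1 group, no group was large enough for a check of single samples.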

How the results depend on the processing

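Every count of genes called between a blood class and stroma, and between erythroid-like and myeloid-like cells, was 41 under each alternative run. For the counts that follow, the share of all genes is printed above in some settings only. The preosteoblast-like minus reticular-like count was 25 to 38, with 38 at both other cell limits and with cell cycle genes kept in the clustering. The endothelial minus stromal count of 6 became 11 with the highest Scrublet scores removed and 27 with the unnamed stromal clusters left out. In that second setting all 12 mitosis genes below 0 changed sign on the log2 scale, Aurka (1.55), Aurkb (0.20), Bub1b (1.11), Kif11 (0.78) and Hmmr (1.63) as well as Mki67 (1.96), Top2a (1.51), Ccnb1 (1.31), Tpx2 (1.49), Plk1 (2.13), Kif20a (1.37) and Prc1 (1.67). The cycling stromal cluster, picked by its mitosis sum, was left out there, so a shift in this direction was set in advance. The lymphoid minus myeloid count of 7 became 11 with the replicate block, 11 with the block and correlated genes left out, 11 with high Scrublet scores removed, 12 without a count filter, 15 at 2000 genes and 10% mitochondrial UMIs and 28 at resolution 1.0. The tdTomato count of 0 became 6 with the replicate block, 2 without a count filter, 3 with the block and the 95th percentile and 19 with the block and correlated genes left out. The block moved no other count by over 1.5 times. The cause was not tested, except that removed clusters and cells change the sums themselves.

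The log2 ratio of S phase to mitosis in stromal cells turned from -0.63 to 0.72 without the unnamed clusters. A rise was set in advance, because the cycling stromal cluster left out was picked by its mitosis sum. The ratio of erythroid-like cells moved from -1.27 to -1.09 at the stricter cell limits. Leaving out either mouse leaves 1 sum per class and no spread between samples, so calls were not recomputed. The ratios then ran from -1.01 to -0.26 in stromal, -1.04 to -0.08 in endothelial, -1.06 to -0.84 in myeloid-like, -1.35 to -1.14 in lymphoid-like and -1.32 to -1.22 in erythroid-like cells.

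The share of cells with either list depended on the limit and the depth. With 1 or more UMIs it was 31.9% in stromal, 41.9% in endothelial, 48.1% in myeloid-like and 56.8% in lymphoid-like cells. With 3 or more it was 4.07% in stromal, 2.80% in endothelial and 23.6% in lymphoid-like cells. At 5000 UMIs it was 21.2, 39.0, 45.5 and 68.6% in stromal, endothelial, myeloid-like and lymphoid-like cells. Cells under 5000 UMIs were left out there. The median lymphoid-like cell held 5044 and 4382 UMIs, so that share covers only the deeper cells of the class. Without thinning the shares were 54.5, 66.5, 52.4 and 51.9%, with 99.3% in erythroid-like cells. The 6 added alternatives were chosen after the data were seen. Depth limits the tdTomato comparison most, where 7 of the 41 genes were too low to be tested.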
